A study of Pan troglodytes with 217 samples.

Results

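Genes through which an early embryo can meet the maternal immune system were examined in single cells of chimpanzee blastoids. The group is a list of 10 genes, put together by function. VTCN1, CD274 and CD276 encode checkpoint ligands of the B7 family. B2M, TAP1 and TAP2 act in antigen presentation by major histocompatibility complex (MHC) class I. CD46, CD55 and CD59 encode complement regulators, and IDO1 an enzyme that degrades tryptophan. Symbols were matched to the Ensembl chimpanzee identifiers of the count table, which has 33729 of them, and 9 of the 10 genes were found. CD59 had no matching identifier and is not reported.

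Blastoids are blastocyst-like structures that form from pluripotent stem cells. They were made from chimpanzee naive pluripotent stem cells maintained in PXGL medium with activin A, IL-6 and the EZH2 inhibitor EPZ-6438. Blastoid formation began in N2B27 with PD, A83-01, LPA and Y-27632, went on without PD and ended in N2B27 alone, and the structures were taken at day 4. The mural trophectoderm was cut off and dissociated apart from the rest of the structure. Each single cell gave its own SMART-seq2 library from full-length cDNA. All cells share this 1 condition, and neither the blastoid, the cell line nor the dissected portion of a cell is given in the sources used here. A blastoid is a culture model, and no embryo or maternal cell was part of the data. The cells were therefore treated as 1 sample without replicates, no test was run, and every difference below is a description.

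The trophectoderm is the outer layer of the blastocyst and the source of the placenta, and it is the layer that meets maternal tissue. Class I molecules carry peptides to the cell surface, where T cells read them, and they need beta-2-microglobulin for their fold and the TAP transporter for their peptides. Trophoblast is known for low or unusual class I expression, for ligands that restrain T cells and for surface proteins that stop complement. The inner cell mass gives rise to the epiblast, which forms the embryo proper, and the hypoblast, which forms the yolk sac.

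All cells but 24 had reads on at least 8000 genes, and these cells were used. They had 1679888 to 25630392 reads on genes each. Leiden clustering gave 4 clusters, named from fixed lists of markers as 50 epiblast-like, 32 hypoblast-like, 60 early and 51 late trophectoderm-like (TE-like) cells. Median totals were 3951119, 3978822, 3693058 and 4516217 reads in this order. All 9 late markers were higher in the late TE-like cells, among them CGA at 858 CPM (reads per 1000000 reads) against 18.5 CPM. The 3 early markers were higher in the early cells, among them CDX2 at 24.8 CPM against 1.62 CPM. The names early and late were given from these same markers, so their order is no separate support for the names. Of 8 leukocyte markers, 4 had a mean of at least 1 CPM in epiblast-like and 4 in hypoblast-like cells. In early TE-like cells 1 did and in late ones 2. Their summed level had a median of 15.6, 13.1, 7.27 and 10.1 CPM in the 4 classes in this order. LYZ had no read in any cell, and PTPRC reached at most 0.23 CPM in a class. The clustering used all genes, members included. Clustering without the members and the other genes of the immune lists put every one of these cells in the same class.

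A level below is the pooled CPM of a class, the reads of a gene summed over its cells and scaled by all reads of those cells, with an exact Poisson 95% interval. Shares of cells have exact Clopper-Pearson 95% intervals, and a count of 0 is given with a limit of 3 counts of the total in place of an interval. Reads carry no molecular identifiers, so both intervals cover counting error only and not the difference between blastoids. Gene lengths were not used, so levels are compared between classes and not between genes. Folds are ratios of CPM + 1 and understate the change of low genes. Against the inner cells, meaning the epiblast- and hypoblast-like cells together, VTCN1 was 9.33-fold and CD274 15.5-fold higher in the TE-like cells. B2M was 7.85-fold lower there. The other tested members differed less, with CD55 at 2.83-fold, CD276 at 2.05-fold and CD46 at 1.22-fold higher. TAP1, TAP2 and IDO1 stayed below 1 CPM over all cells and were not counted. So 2 of 6 tested members were at least 4-fold higher, against 2.56% of all 12197 genes tested, and 1 of 6 was at least 4-fold lower, against 5.57%. The lowest value among 17 alternatives of clustering, filtering and summary was 8.70-fold for VTCN1, 12.2-fold for CD274 and 7.23-fold for B2M.

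**Figure D1:**
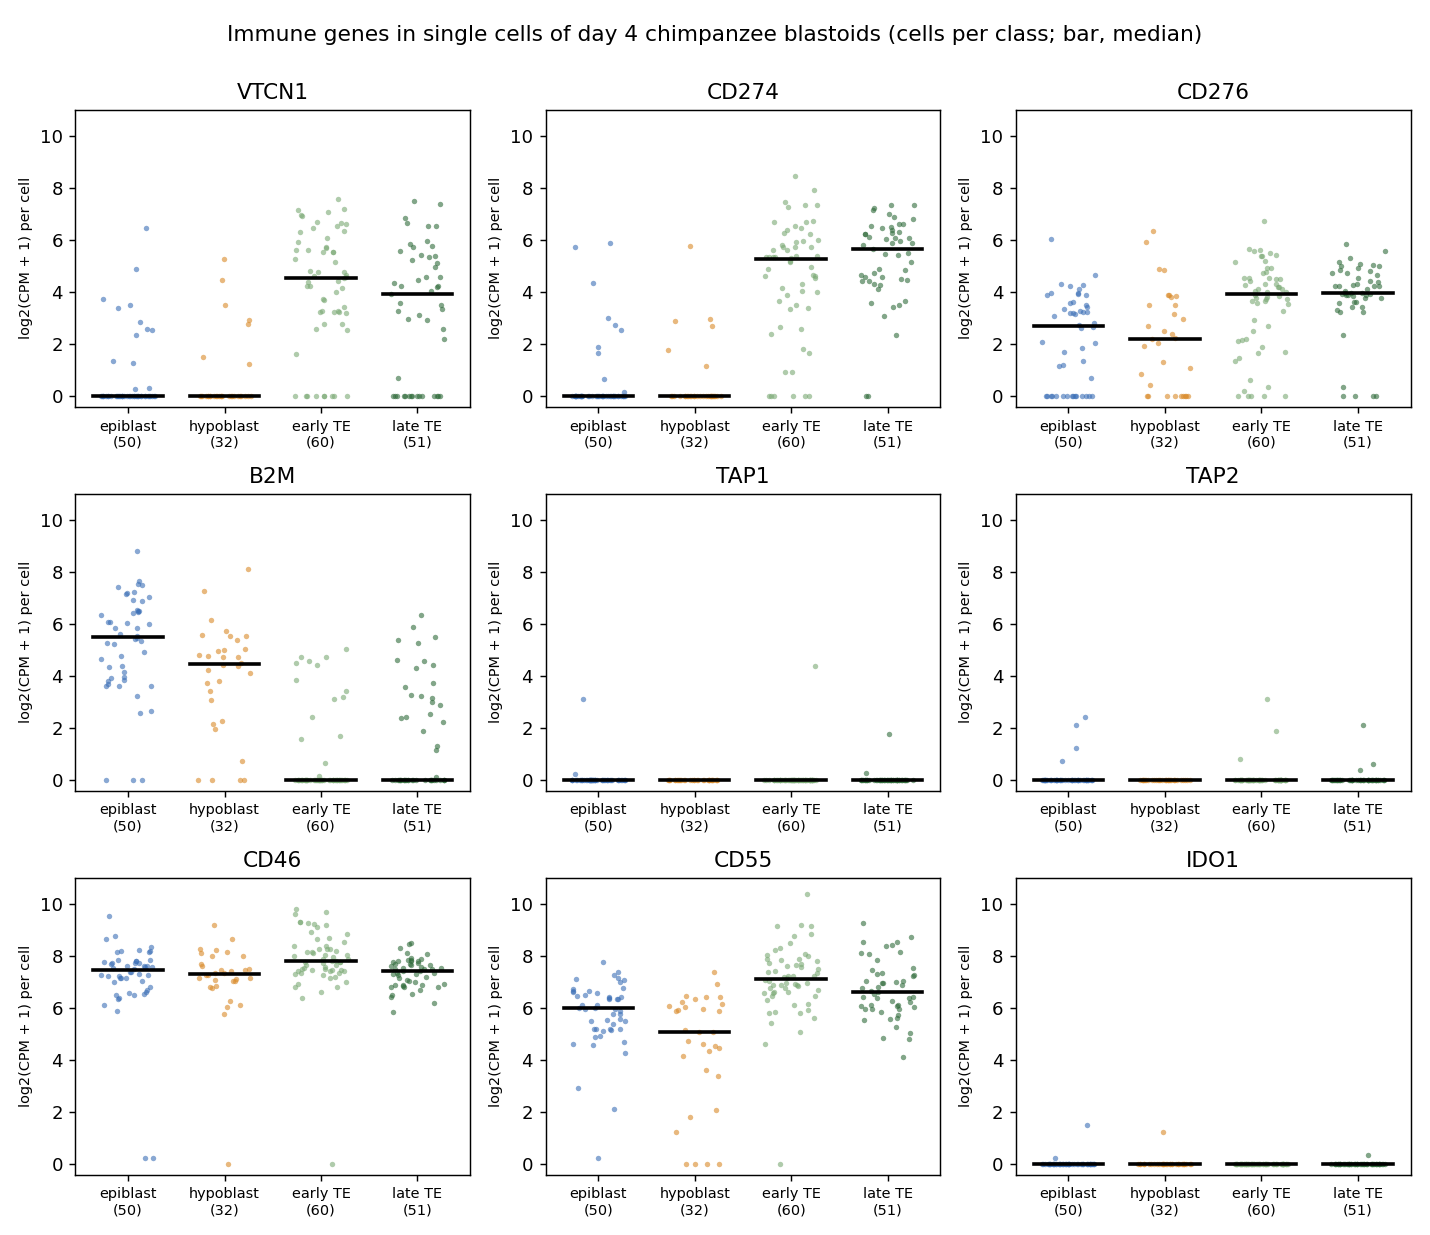
Level of the 9 matched genes in each cell that passed the filter, as log2(CPM + 1), by class, with 1 point per cell, the class median as a bar and the number of cells under each class. VTCN1 and CD274 have a median of 0 in epiblast- and hypoblast-like cells and B2M in both TE-like classes, whereas nearly all cells have CD46 and CD55, and TAP1, TAP2 and IDO1 lie at 0 in nearly all cells.

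**Figure D2:**
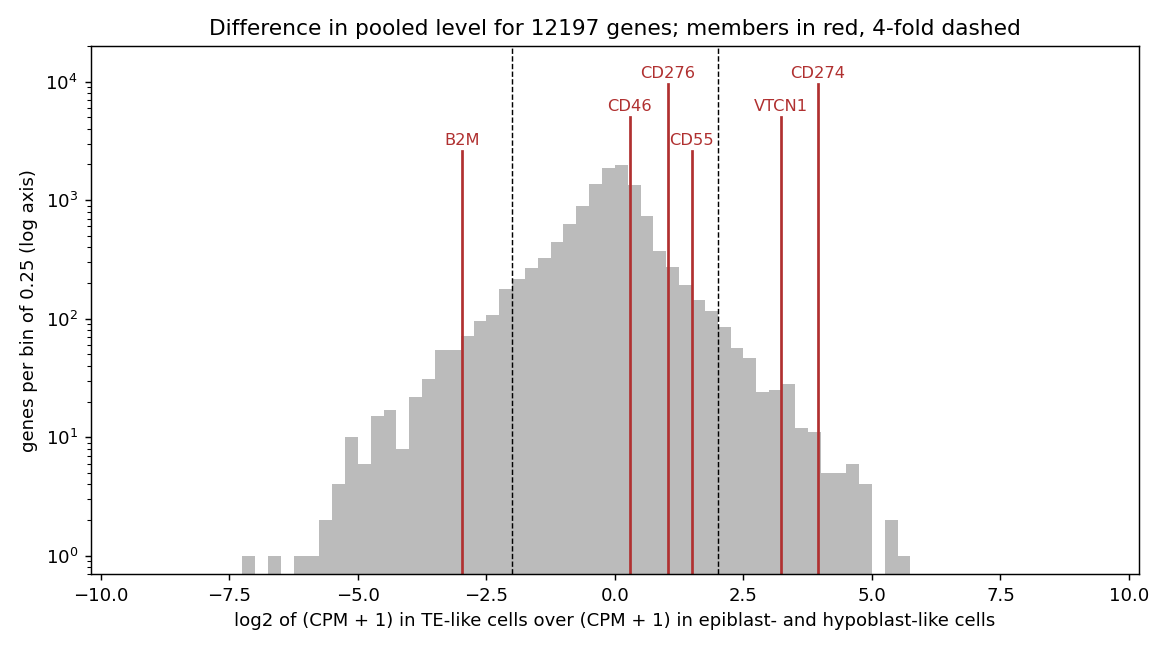
Distribution over 12197 genes of the log2 ratio of CPM + 1 in the 60 early and 51 late TE-like cells to that in the 82 inner cells, with genes per bin on a log axis. Red lines mark the 6 tested members and dashed lines a 4-fold difference, which VTCN1 and CD274 pass on the higher side and B2M on the lower side.

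VTCN1 (ENSPTRG00000001164) encodes B7-H4, a ligand that inhibits T cells. Its level was 41.3 CPM (95% interval 40.6 to 42.1) in early and 27.9 CPM (27.3 to 28.6) in late TE-like cells. In epiblast- and hypoblast-like cells it was 2.92 CPM (2.699 to 3.16) and 2.7 CPM (2.42 to 3.00), and these intervals overlap. The order was thus early TE, late TE and then both inner classes, which counting error does not separate. Per cell, early TE-like cells ran from 0 over a median of 22.5 to 191.96 CPM, and late ones from 0 over 14.1 to 181.4 CPM. The epiblast-like cells had a median of 0 and a highest value of 87.2 CPM, and the hypoblast-like cells a median of 0 and a highest value of 37.5 CPM. The ranges of all classes overlap, since each class holds cells at 0. A read was found in 51 of 60 early (85%, 73.4% to 92.9%) and 36 of 51 late TE-like cells (70.6%, 56.2% to 82.5%). In the inner cells 13 of the 50 in the epiblast-like class (26%, 14.6% to 40.3%) and 7 of the 32 in the hypoblast-like class (21.9%, 9.28% to 39.97%) had one. With each cell thinned to 2532312 reads, 79 of 100 TE-like and 18 of 73 inner cells kept a read. VTCN1 is also known from the amnion. The summed level of 5 amnion markers had a median of 7.4 CPM in early and 6.9 CPM in late TE-like cells, against 229.5 CPM in epiblast-like and 327.5 CPM in hypoblast-like cells. BAMBI was the most abundant of them, at pooled levels of 288.1 and 329.2 CPM in the inner classes, so the sum follows this gene. The amnion markers GABRP and IGFBP3 were at 0.03 and 0.08 CPM in early and 0.27 and 0.37 CPM in late TE-like cells.

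CD274 (ENSPTRG00000020755) encodes PD-L1, which restrains T cells through the receptor PD-1. Late TE-like cells had 58.2 CPM (57.2 to 59.1) and early ones 44.9 CPM (44.1 to 45.7), against 2.80 CPM (2.58 to 3.03) in the epiblast-like class and 1.69 CPM (1.47 to 1.93) in the hypoblast-like one. Single early TE-like cells ran from 0 over a median of 37.3 to 349.7 CPM, and single late ones from 0 over 49.5 to 159.9 CPM. The median was 0 in both inner classes, with highest values of 58.9 and 52.9 CPM. A read was present in 54 of 60 early (90%) and 49 of 51 late TE-like cells (96.1%), and in 10 of 50 (20%) and 6 of 32 (18.8%) inner cells. CD274 thus marked nearly every TE-like cell and a minority of inner cells. At equal depth the counts were 92 of 100 TE-like and 13 of 73 inner cells. The inner levels of both ligands rested in large part on single cells. One cell held 60.8% of the CD274 reads of the hypoblast-like class. Without the cell of highest level in each class, the epiblast-like level of CD274 was 1.81 CPM and its hypoblast-like level 0.67 CPM, and those of VTCN1 were 1.87 and 1.31 CPM. The folds of TE-like over inner cells were then 21.2 for CD274 and 12.7 for VTCN1.

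Cells with both ligands and cells with either alone were found in the TE-like classes. Of the 60 early TE-like cells, 28 had at least 10 CPM of both VTCN1 and CD274, 11 of VTCN1 alone, 17 of CD274 alone and 4 of neither. Of the 51 late cells, 23 had both, 5 VTCN1 alone and 23 CD274 alone, and none lacked both. Spearman rho between the genes was -0.21 over the 60 early and -0.28 over the 51 late cells. These are descriptions over cells that share 1 preparation. Total reads per cell had a rho of -0.05 with VTCN1 and -0.15 with CD274 in the early cells, and of -0.12 and 0.16 in the late cells.

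**Figure D3:**
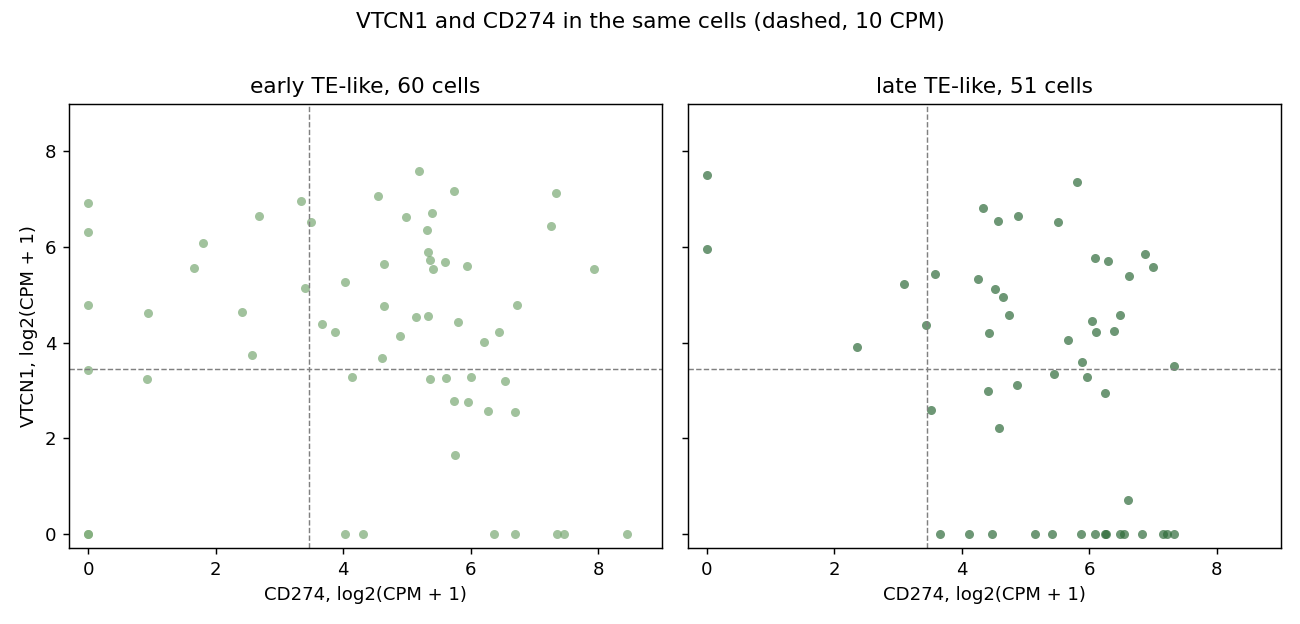
VTCN1 against CD274 in the 60 early and 51 late TE-like cells, both as log2(CPM + 1), 1 point per cell, with dashed lines at 10 CPM. In the late cells the lower left field is empty and 23 cells lie at the lower right, with CD274 but less than 10 CPM of VTCN1.

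Inner cells with these ligands carried more trophectoderm markers. The 16 inner cells with a CD274 read had a median of 7 of the 11 trophectoderm markers at 10 CPM or more, and none had fewer than 5. The 66 without a read had a median of 3. GATA3, a transcription factor of the trophectoderm, had a median of 152.5 CPM in the cells with a CD274 read and 5.18 CPM in those without. For VTCN1 the 20 inner cells with a read had a median of 6.5 markers, with a lowest number of 2, and the 62 others a median of 3. POU5F1, an epiblast marker, had a median of 962 CPM in the 10 epiblast-like cells with a CD274 read and 1384 CPM in the 40 without. In the hypoblast-like class the order was the opposite, with 680 CPM in 6 cells with a read and 269 CPM in the 26 others. A cell had markers of more than 1 lineage where at least 3 trophectoderm and at least 3 epiblast or 3 hypoblast markers reached 10 CPM. Epiblast with hypoblast markers alone did not count, and 22 of 32 hypoblast-like cells had at least 3 epiblast markers at 10 CPM. The rule held for 32 epiblast-like, 25 hypoblast-like, 11 of 60 early and 11 of 51 late TE-like cells. Leaving out all of these cells also leaves out the 16 inner cells with a CD274 read, which all had at least 5 trophectoderm markers, so the level of CD274 in the remaining inner cells is no separate result. VTCN1 had a read in 3 of the 18 epiblast-like cells and none of the 7 hypoblast-like cells that remained, and its level was 35.6 CPM in TE-like and 0.88 CPM in inner cells. No doublet caller was run, and the part of doublets or carried-over RNA in these reads was not tested.

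**Figure D4:**
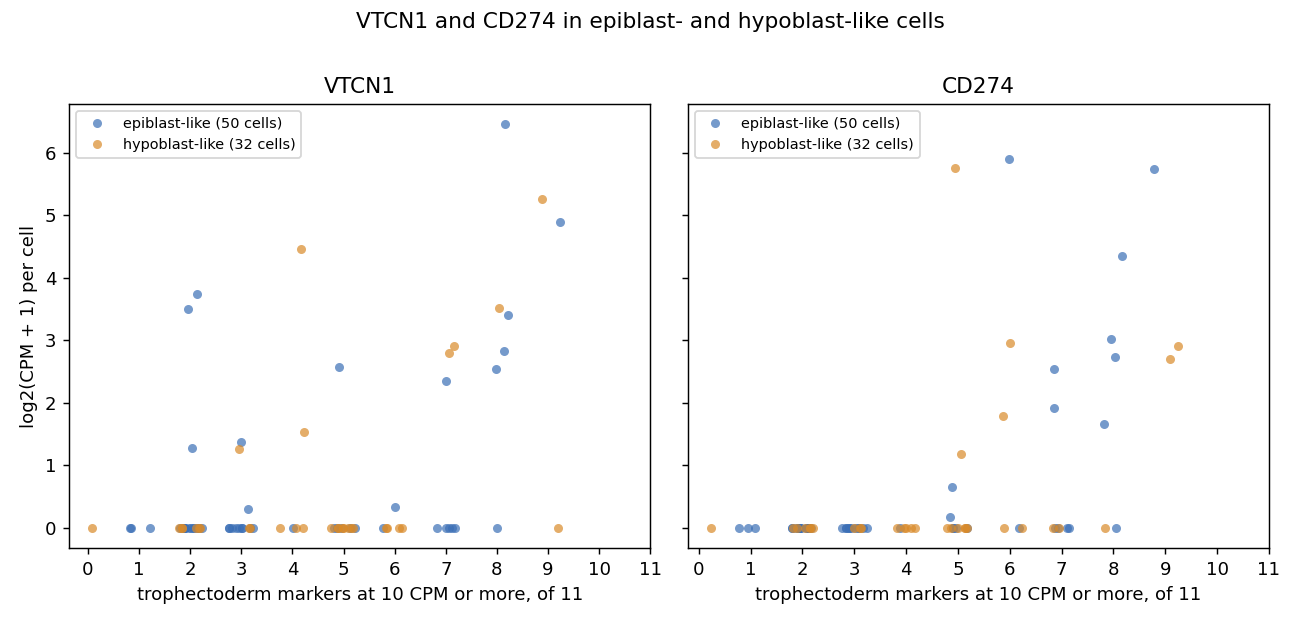
VTCN1 and CD274 as log2(CPM + 1) in the 50 epiblast-like and 32 hypoblast-like cells against the number of the 11 trophectoderm markers at 10 CPM or more, shifted slightly so that points do not hide each other. CD274 reads occur only among these cells with 5 markers or more, and VTCN1 reads from 2 markers on.

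CD276 (ENSPTRG00000007261) encodes B7-H3, a B7 protein of broad expression. Its levels were 7.06 CPM (6.71 to 7.43) in epiblast-like cells, 9.53 CPM (9.0 to 10.1) in hypoblast-like cells, 16.5 CPM (16.1 to 17.04) in early and 18.4 CPM (17.8 to 18.9) in late TE-like cells. Medians over cells were 5.47, 3.65, 14.3 and 14.8 CPM, so the inner classes changed their order while both TE-like classes stayed above them. Reads were found in 35 of 50, 23 of 32, 55 of 60 and 47 of 51 cells. Unlike the other ligands, CD276 was thus present in most cells of every class.

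Among all 10 genes listed for the B7 family, 5 were tested and 3 were at least 4-fold higher in TE-like cells, against 2.56% of all genes, with a median log2 fold of 2.63 against -0.07 for all genes tested. The third was VSIR, encoding the inhibitory ligand VISTA, at 14.9 CPM in late and 0.91 CPM in early TE-like cells and at most 0.55 CPM in inner cells. CD80 and CD86, the costimulatory ligands of antigen-presenting cells, were at or below 0.07 CPM in every class. These and the other low genes named for their absence were chosen after their values were seen. PDCD1LG2, the neighbour of CD274 with no protein-coding gene between them in the RefSeq annotation, had 0.90 and 0.94 CPM in early and late TE-like cells and no read in the inner cells. Of 9 tested genes for other inhibitory ligands, 1 was at least 4-fold higher in TE-like cells, against 2.56% of all genes, and 2 were at least 4-fold lower, against 5.57%. CD47, the signal that restrains macrophages, was at 196.8 and 297.0 CPM in early and late TE-like cells against 66.6 and 12.7 CPM in epiblast- and hypoblast-like cells. CD200, which restrains myeloid cells, showed the opposite order with 192.4 and 51.7 CPM in the inner classes and 5.88 and 6.60 CPM in the TE-like ones.

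B2M (ENSPTRG00000007020) encodes beta-2-microglobulin, the light chain of all classical class I molecules. Epiblast-like cells had 73.5 CPM (72.3 to 74.6) and hypoblast-like cells 32.9 CPM (31.9 to 33.9), against 10.0 CPM (9.63 to 10.4) in late and 3.27 CPM (3.06 to 3.50) in early TE-like cells. Per cell, the epiblast-like class ran from 0 over a median of 43.8 to 448 CPM and the hypoblast-like class from 0 over 20.99 to 276.3 CPM. Both TE-like classes had a median of 0, with highest values of 31.7 CPM in early and 80.7 CPM in late cells. The highest TE-like cell thus lay within the range of the inner cells, so the classes overlap. A read was present in 47 of 50 (94%, 83.5% to 98.7%) and 28 of 32 inner cells (87.5%, 71.01% to 96.5%), and in 15 of 60 early (25%, 14.7% to 37.9%) and 24 of 51 late TE-like cells (47.1%, 32.9% to 61.5%). After thinning, 68 of 73 inner and 36 of 100 TE-like cells kept a read. The 39 TE-like cells with a B2M read and the 72 without had the same median number of epiblast markers at 10 CPM, 2 of 11, and POU5F1 medians of 54.9 and 40.7 CPM. The 18 of them with at least 10 CPM of B2M also had a median of 2 epiblast markers and a POU5F1 median of 84.5 CPM. The TE-like classes differed in this. At least 3 epiblast markers were present in 7 of 24 late cells with a B2M read and 3 of 27 without. In early cells they were present in 1 of 15 with a read and 9 of 45 without. Without the cells that held markers of more than 1 lineage, B2M was 8.81-fold lower in TE-like cells.

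The heavy chains that could be tested ran in the same direction as B2M. Of 17 symbols in the class I list 9 were matched, HLA-B and MICA not among them, and 5 were tested. All 5 were lower in TE-like cells, as were 6702 of all 12197 genes tested. Of the 5, 2 were at least 4-fold lower, against 5.57% of all genes, and the median log2 fold of the 5 was -1.96. HLA-F had 37.3 and 10.4 CPM in epiblast- and hypoblast-like cells and 2.15 and 0.58 CPM in early and late TE-like cells. In the same order HLA-C had 78.8, 18.6, 8.0 and 11.2 CPM. HLA-E, a ligand of natural killer cell receptors, differed less, at 62.5, 47.4, 20.4 and 32.1 CPM. Symbols are those of the human genes, the loci are close copies that can exchange reads, and the values of single heavy chains are therefore uncertain. B2M and these 3 heavy chains were all at 10 CPM or more in 35 of the 50 epiblast-like cells, 6 of the 32 hypoblast-like ones and none of the 60 early and 51 late TE-like cells, where the counts of 0 allow shares of up to 5.00% and 5.88%. Their summed level had a median of 226.1, 97.4, 27.1 and 36.7 CPM in the 4 classes. Within the 50 epiblast-like cells, B2M had a Spearman rho of 0.61 with HLA-C, 0.34 with HLA-E and -0.17 with HLA-F, as a description over cells of 1 sample. In the other classes its rho with HLA-C was lower, at 0.02 in hypoblast-like, 0.19 in early and 0.32 in late TE-like cells.

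Most targets of interferon, the cytokine that raises class I genes in many cells, were also lower in TE-like cells. Of 13 tested, 11 were lower, against 6702 of all 12197 genes tested. At least 4-fold lower were 8 of them, against 5.57% of all genes, and none was at least 4-fold higher, against 2.56%. The median log2 fold of the 13 was -2.14. IFITM2, at 8.39 CPM in TE-like and 5.92 CPM in inner cells, and UBE2L6, at 1.31 and 1.29 CPM, were the 2 that were higher. OAS1, a sensor of double-stranded RNA, had 134.8 CPM in epiblast-like cells, 24.3 CPM in hypoblast-like cells, 2.87 CPM in early and 2.84 CPM in late TE-like cells. TRIM22 and ISG15 had the same order of inner over TE-like cells, with 177.4 and 33.1 CPM in epiblast-like and 7.06 and 1.92 CPM in late TE-like cells. None of the 5 matched interferon genes was above 0.08 CPM in a class. Of 13 tested genes for regulators of class I, 2 were at least 4-fold lower in TE-like cells, against 5.57% of all genes, and none was at least 4-fold higher, against 2.56%. They were IRF9, a transcription factor of the interferon response, at 15.3 CPM in inner and 1.92 CPM in TE-like cells, and SOCS3, an inhibitor of cytokine signals, at 5.45 and 0.53 CPM.

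**Figure D5:**
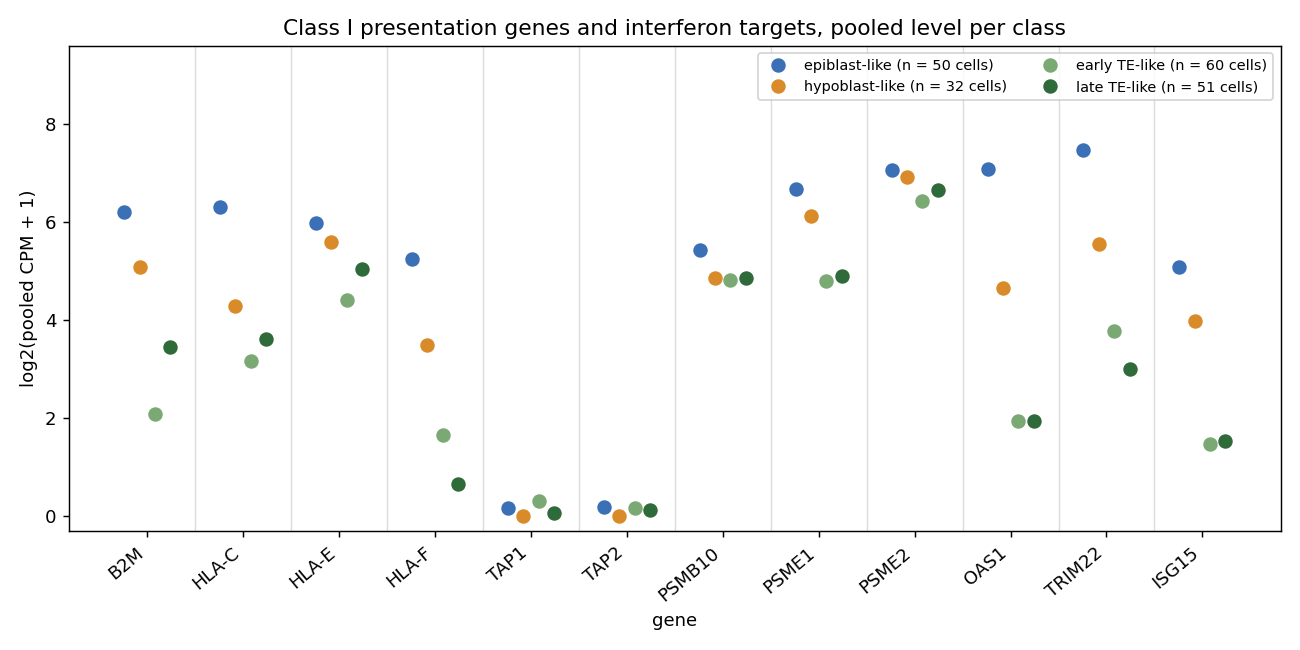
Pooled level of B2M, 3 class I heavy chains, TAP1, TAP2, proteasome genes and 3 interferon targets in the 4 classes, as log2(CPM + 1), with 1 point per class and no error bars, since the Poisson intervals are narrow. B2M, the heavy chains and the interferon targets are highest in epiblast-like cells and lowest in a TE-like class, PSMB10 and PSME2 lie close together and TAP1 and TAP2 are near 0 in every class.

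TAP1 (ENSPTRG00000018023) and TAP2 (ENSPTRG00000018021) together encode the transporter that brings peptides to class I molecules. TAP1 had 27 reads in 2 cells of the epiblast-like class, 66 reads in 1 early TE-like cell and 12 reads in 2 late TE-like cells. TAP2 had 32 reads in 4 epiblast-like, 34 reads in 3 early and 23 reads in 3 late TE-like cells. Neither had a read in the 32 hypoblast-like cells, which allows a share of up to 9.38%. The highest class level was 0.25 CPM for TAP1 and 0.15 CPM for TAP2, and each of these levels rested on at most 4 cells. The highest single cell had 20.1 CPM of TAP1 and 7.74 CPM of TAP2.

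The immunoproteasome genes PSMB8 and PSMB9, which lie next to TAP1 in the RefSeq annotation, were as low, at or below 0.09 CPM in every class. PSMB10, the remaining immunoproteasome subunit, was present at 42.5, 28.3, 27.5 and 28.2 CPM in epiblast-like, hypoblast-like, early and late TE-like cells. PSME1, a subunit of the proteasome activator, was at 89.4 CPM in inner and 27.9 CPM in TE-like cells. The chaperones CALR, CANX and PDIA3, which also serve many other proteins, had 1067, 821 and 437 CPM in inner and 1284, 887 and 697 CPM in TE-like cells. Of 5 tested genes for peptide loading, B2M was at least 4-fold lower, against 5.57% of all genes, and none was at least 4-fold higher, against 2.56%. Of the class II list, 2 of 8 matched genes were tested, both low. CD74, the invariant chain, had 5.48 CPM in late TE-like and at most 0.08 CPM in the other cells.

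CD46 (ENSPTRG00000001931) encodes membrane cofactor protein, which helps to cleave C3b and C4b on the cell surface. Its level was 183.2 CPM (181.4 to 184.99) in epiblast-like cells, 176.5 CPM (174.2 to 178.8) in hypoblast-like cells, 269 CPM (267 to 271) in early and 170.1 CPM (168.5 to 171.8) in late TE-like cells. Single cells ran from 0.18 over a median of 173.3 to 741 CPM in the epiblast-like class and from 0 over 157.3 to 583.5 CPM in the hypoblast-like class. In the early TE-like class they ran from 0 over 220.3 to 893 CPM, and in the late one from 56.02 over 171.4 to 355 CPM. CD46 was read in every cell but 1 hypoblast-like and 1 early TE-like cell, and the ranges of all classes overlap. Over the early TE-like cells its level had a Spearman rho of -0.32 with total reads and -0.47 with detected genes, and over the late ones of -0.25 and -0.05, and the part of this in the differences and correlations of CD46 was not tested. The order of epiblast- and hypoblast-like cells turned under 3 of 17 alternatives.

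CD55 (ENSPTRG00000024008) encodes decay-accelerating factor, which takes apart the convertases of complement and is held to the membrane by a GPI anchor. The levels were 186.8 CPM (185.2 to 188.5) in early and 150.995 CPM (149.5 to 152.5) in late TE-like cells, against 68.2 CPM (67.1 to 69.3) in epiblast-like cells and 44.4 CPM (43.2 to 45.5) in the hypoblast-like class. Early TE-like cells ran from 0 over a median of 135.8 to 1329 CPM and late ones from 16.4 over 95.4 to 605 CPM. The epiblast-like class ran from 0.18 over 62.3 to 213.6 CPM and the hypoblast-like class from 0 over 32.8 to 164.02 CPM. The medians of both TE-like classes thus exceeded those of the inner classes, and the ranges overlap. Of the hypoblast-like cells 28 of 32 had a read, and 50, 59 and 51 cells of the epiblast-like, early and late TE-like classes did. No more than 1 cell lacked CD55 in any of these.

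Of 13 matched complement regulators 5 were tested, with a median log2 fold of 0.68 between TE-like and inner cells. None was past 4-fold, which 2.56% of all genes passed on the higher and 5.57% on the lower side, so a count of 0 says little of so few genes. SERPING1, the inhibitor of C1 proteases, was at 28.3 CPM in epiblast-like and between 3.31 and 4.76 CPM in the other classes. CLU, clusterin, was at 42.8 CPM in late TE-like, 12.2 CPM in early TE-like, 22.2 CPM in epiblast-like and 6.95 CPM in hypoblast-like cells. Of 20 matched complement components 3 were tested. C2 was at 17.97 CPM in late TE-like cells and at most 1.32 CPM elsewhere, whereas C1S was at 9.86 CPM there and at 75.8, 41.97 and 120.1 CPM in early TE-like, epiblast- and hypoblast-like cells. The 6 genes listed for the GPI anchor were all tested, with a median log2 fold of 0.49, and against the same 2.56% and 5.57% none was past 4-fold.

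IDO1 (ENSPTRG00000020187) encodes indoleamine 2,3-dioxygenase, which converts tryptophan to kynurenine and so restrains T cells. It had 8 reads in 2 epiblast-like cells, 13 reads in 1 hypoblast-like cell, none in early and 1 read in late TE-like cells. The highest cell had 1.84 CPM. In the 60 early TE-like cells the count of 0 allows a share of up to 5.00%. IDO2 and TDO2, the other enzymes of this step, were at or below 0.01 CPM in every class. Of 5 tested genes for later steps 1 was at least 4-fold higher in TE-like cells, against 2.56% of all genes. It was KMO, which oxidizes kynurenine, at 12.7 CPM against 1.38 CPM in inner cells. KMO had 8.28 CPM in early and 17.4 CPM in late TE-like cells.

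Within the inner cells, B2M was 2.20-fold higher in epiblast-like than in hypoblast-like cells. CD55 was 1.53-fold and CD274 1.41-fold higher there, VTCN1 1.06-fold and CD46 1.04-fold higher, and CD276 was 1.31-fold lower. None of 6 tested members was at least 4-fold higher, against 3.07% of all genes, or at least 4-fold lower, against 1.54%. The direction held under all 17 alternatives for B2M and CD55, turned under 2 for VTCN1 and under 1 for CD276. All 5 tested class I genes were higher in epiblast-like cells, as were 7540 of all 12197 genes tested. Of the class I genes 1 was at least 4-fold higher, against 3.07% of all genes. Their median log2 fold was 1.63, against 0.15 for all genes. The B2M difference was 1.48-fold without cells with markers of more than 1 lineage, where 18 and 7 cells remained. That rule did not leave out cells for epiblast together with hypoblast markers.

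Between the TE-like classes, B2M was 2.58-fold and CD274 1.29-fold higher in late cells. CD46 was 1.58-fold, VTCN1 1.46-fold and CD55 1.24-fold lower there, and CD276 was 1.10-fold higher. None of 6 tested members was at least 4-fold higher in late cells, against 2.01% of all genes, or at least 4-fold lower, against 0.951%. One late cell held 35.3% of the B2M reads of its class, and without the highest cell of each class the difference was 2.05-fold. VTCN1 and CD46 were lower and CD274 and CD276 higher in late cells under all 17 alternatives. The number of late cells ranged from 36 to 51 over the clusterings. Clustered without any immune or lineage marker gene, VTCN1 was at 45.03 CPM in 72 early and 18.6 CPM in 39 late cells. CD55 turned its direction under 3 alternatives, all of them other limits on detected genes, and was at 254.8 CPM in late and 173.4 CPM in early cells with a lower limit.

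The genes whose levels ran most like those of the members were sought among 9536 genes with a read in at least 50% of cells. Over all cells that passed the filter CD274 was most like PTN, SLC38A1 and CCKBR (Spearman rho 0.80, 0.80 and 0.79). VTCN1 was most like WLS and the keratins KRT8 and KRT18 (0.65, 0.61 and 0.61). B2M was most like ABCA1, PLAUR and GNAI2 (0.68, 0.68 and 0.67), and CD55 most like CTSL, CD47 and SLC3A2 (0.66, 0.62 and 0.61). For CD46 and CD276 the highest values were lower, 0.55 with CERS5 and 0.50 with SEC11A. These values include the differences between the classes. Within single classes the likeness changed. Over the 51 late TE-like cells CD274 was most like SSR2, XBP1 and DNA2 (0.61, 0.60 and 0.60), and over the 60 early cells CD46 was most like KTN1 and NEU1 (0.74 and 0.74), CD55 most like HSP90B1 (0.67) and VTCN1 most like ARF5 (0.48). Over the 50 epiblast-like cells B2M was most like CDH3, HLA-C and SERINC1 (0.63, 0.61 and 0.60), so that a class I heavy chain was among its 3 nearest genes of 10203 compared. CD46 and CD55, which are 2 protein-coding genes apart in the RefSeq annotation, had a rho of 0.47 over the early TE-like cells.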

How the data were processed

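Read counts per gene, deposited by the authors without normalization, were used for 217 single cells of day 4 blastoids. The paper's methods name an alignment of the SMART-seq2 reads to the chimpanzee genome with STAR, while the submitters' processing notes name Trim Galore 0.6.6, STAR 2.7.7a and GRCh38. The identifiers are those of chimpanzee genes, and this difference could not be settled. Symbols covered 18783 of 33729 identifiers. No genome sequence was used.

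Cells needed 4000 reads and 8000 detected genes, the limits that the paper's methods state, which left out 24 of 217 cells. The paper's text gives a smaller number of cells than the 193 that remained here, and this difference could not be settled. Genes with a read in at least 20 cells were clustered with Scanpy 1.11.5 and leidenalg 0.10.2 on normalized log values (50 principal components, 30 neighbours, resolution 1, seed 0). Clusters were named from the highest mean standardized level of the marker lists. A gene was tested, meaning that it entered the counts, with at least 1 CPM over all cells. It counted as past the fold at 4-fold with a pseudocount of 1 CPM. Thinning went to the 10th percentile of totals and left out 20 shallower cells. Other software was pandas 2.3.3, numpy 2.4.6, matplotlib 3.10.9, scipy 1.17.1, scikit-learn 1.9.0 and anndata 0.12.19 under Python 3.11.15.

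All members are named. Of each other list, at most 4 genes were to be named, those past the fold first and then those of highest level. The members and lists were chosen with earlier results of these data known. Symbols with several identifiers, among them IFI6, PSME3 and IFNAR1, were summed. Among the listed genes, 2 are not reported here and entered no count of their lists.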

Additional observations from a re-analysis of the deposited data

Results flagged for a closer look

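The 24 cells left out for fewer than 8000 detected genes entered no comparison above and also held reads of 7 members. They had between 2330 and 7984 detected genes and were assigned to no class. Their pooled levels were 26.8 CPM for VTCN1, 38.4 CPM for CD274, 16.6 CPM for CD276, 11.4 CPM for B2M, 189.1 CPM for CD46 and 555.0 CPM for CD55. VTCN1 was read in 3 of these cells, CD274 in 6, B2M in 10, CD276 in 12, CD55 in 16 and CD46 in 21. The CD55 level was far above that of any class, with a highest cell of 4723 CPM and a median over the 24 cells of 9.67 CPM. TAP1 and IDO1 had no read, and TAP2 had 2 reads in 1 cell.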

How the results depend on the processing

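With a fold of 2 in place of 4, 5 members passed between TE-like and inner cells in place of 3, and 1 passed between epiblast- and hypoblast-like cells and 1 between late and early TE-like cells in place of 0. The other 66 of 69 recomputed counts of members stayed within 1.5 times the main count. Levels moved by more than their counting interval in 277 of 612 recomputed values and shares in 41 of 288. Size factors from the class sums lowered the epiblast-like levels by 0.14 on the log2 scale. In the other clusterings and filters at most 15 of the cells compared changed class. TAP1, TAP2 and IDO1 had reads in few cells, so their shares are imprecise, and thinning to equal depth left TAP2 with a read in 10 cells, as before. With cells of more than 1 lineage left out, 18 epiblast-like and 7 hypoblast-like cells remained, so shares there are imprecise. No paired analysis was possible because all cells form 1 group, and no replicate could be left out.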

Other observations

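Of 15 genes listed for other immune modulators, 6 were tested, and 1 was at least 4-fold higher in TE-like than in inner cells, against 2.56% of all genes, and 1 at least 4-fold lower, against 5.57%. The higher one was PTGES, the synthase of prostaglandin E2, at 157.6 CPM in early and 51.3 CPM in late TE-like cells against 12.7 CPM in epiblast-like and 7.33 CPM in hypoblast-like cells. The lower one was CXCL12, a chemokine, at 44.5 and 21.8 CPM in the inner classes and 0.40 and 0.47 CPM in the TE-like classes. TGFB1, an inhibitory cytokine, was at 9.05 CPM in late and 0.49 CPM in early TE-like cells. Of 10 checkpoint receptors, 3 were tested. BTLA was at 13.8 and 18.2 CPM in epiblast- and hypoblast-like cells, 5.84 CPM in early and 0.20 CPM in late TE-like cells. IFNGR1, a chain of the interferon gamma receptor, was at 348 CPM in late and 154.03 CPM in early TE-like cells.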
